A study of Homo sapiens with 2 samples.

Results

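The subject is the set of nuclear genes named as proteins of the mitochondrial ribosome, measured by RNA-seq in NCI-H2030 cells. NCI-H2030 is an established line from a human lung adenocarcinoma, and 2 libraries were made from it. The genes were taken by name: every annotated gene whose symbol is MRPL or MRPS followed by a number and, at most, a letter from A to C. This gave 76 of 55773 annotated gene symbols, 47 of the large subunit (MRPL) and 29 of the small subunit (MRPS). The treatment was SC for 1 culture and miR-494-3p AS for the other. The labels spell out neither abbreviation, so SC and AS are used as group names. Both come from the same cell line and total RNA, and the labels give no dose, time or transfection method. The title of the series names miR-494-3p and SET/I2PP2A in non-small cell lung cancer cells. With 1 library in each group there is no spread between replicates and no test, so each difference is one between these 2 libraries.

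The mitochondrial ribosome translates the few messenger RNAs that the mitochondrial genome encodes, which specify core subunits of the respiratory chain and ATP synthase. Its 2 ribosomal RNAs are made inside the organelle, whereas all of its proteins are encoded in the nucleus, made in the cytosol and imported. Many of these proteins descend from bacterial ribosomal proteins, and the others are found only in mitochondrial ribosomes. The large subunit joins amino acids and releases the chain through an exit tunnel that faces the inner membrane. The small subunit binds and decodes the messenger RNA.

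Levels are in TPM as deposited, a relative abundance that is already corrected for transcript length. The main measure of difference was log2((AS + 1)/(SC + 1)) of TPM, and a gene is called measured where its mean over both libraries reached 1 TPM. All 76 genes were measured, out of 13669 measured genes in all. Across those 13669 genes the median log2 ratio was 0.28 and not 0, so a gene at 0 lies below the middle of the transcriptome. The deposited coverage, the mean read depth of a gene, was used as a second measure. It was put on the TPM scale by 1 constant per library, the one that most rows shared. Coverage was 3.62 times the FPKM in 54.6% of rows with a value for SC, and 3.54 times in 52.6% for AS. TPM is itself scaled from FPKM, so the 2 measures are not independent. The epithelial keratins KRT8 and KRT18 were at 345 TPM or more in both libraries. EPCAM was at 0.604 TPM in SC against 1.84 in AS, NAPSA at 1.62 and 1.04 TPM, NKX2-1 was at 0.032 TPM in both, CDH1 at 0.014 TPM or less, and KRT19 was listed at 0, so several markers of lung epithelium were near 0 in this line. The leukocyte genes PTPRC and CD3E were listed at 0, and COL1A1 was at 26.3 and 15.8 TPM. The RNA came from whole cultures, so more cells with a transcript and more transcript per cell cannot be told apart.

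The mature sequence of the microRNA named in the treatment is given first, from RefSeq (GRCh38.p14), because the search for its sites in the members depends on it. The capitals mark its seed, bases 2 to 8.

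miR-494-3p: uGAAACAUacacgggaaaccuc

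For each gene the longest 3' UTR in the annotation was searched for ATGTTTCA, ATGTTTC or TGTTTCA, the letters that pair with this seed. Of 74 members with a 3' UTR in GENCODE release 29, 15 held such a site (20.3%), against 27.7% of 10559 measured protein coding genes. The members' 3' UTRs were also shorter, with a median of 475 bases against 1210. Only MRPL35 and MRPL42 held the full 8-base site, in capitals below with the bases around it. The 7-base sites of MRPS23, MRPS10 and MRPL30 are shown because these genes were among those past 2-fold. The other members with a 7-base site are not shown, and their log2 ratios ran from -0.26 (MRPS11) to 0.81 (MRPS14).

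MRPL35: gtttaattttgATGTTTCAaattttgagct

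MRPL42: taaatgttatgATGTTTCAgttggcttcta

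MRPS23: gaactgtgtaaATGTTTCttgatctctaa

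MRPS10: tttttattcatTGTTTCAgttctgatttc

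MRPL30: ttccctttcacTGTTTCActccaaaacat

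The pair of genes with the 8-base site had unlike ratios. MRPL35, a bacterial-type protein of the large subunit, was at 32.2 TPM in SC against 29.1 in AS (log2 ratio -0.14; 0.35 in coverage). MRPL42, found only in mitochondrial ribosomes, was at 12.6 and 27.0 TPM (1.04; 0.92 in coverage). The 15 members with a site had a median log2 ratio of 0.42 and a median transcript GC content of 44.6%, and the 59 without one had a median of 0.04 and 52.3%. Over measured coding genes the corresponding medians were 0.63 at 44.3% GC and 0.19 at 53.4% GC. At least 2-fold higher were 4 of the 15 members with a site and 4 of the 59 without. Among 10559 measured coding genes these were 809 of 2922 with a site and 1040 of those without. Genes with a site had the lower GC content in both sets, and the separate parts of the site and of GC content were not tested.

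As a whole the ribosomal protein genes were nearly level between the libraries. Their TPM summed to 7659 in SC and 7806 in AS, a ratio of 1.02, and made up 0.787% and 0.806% of all annotated TPM. On the coverage measure the sum in AS was 1.01 times that in SC. The median log2 ratio was 0.19, with values from -0.71 to 1.51, and 45 genes were higher and 31 lower in AS. At least 2-fold higher in AS were 8 of 76 (10.5%), against 16.5% of all measured genes, and none was 2-fold lower, against 2.17%. By coverage 7 of 76 were at least 2-fold higher, against a background of 20.2%, and none was 2-fold lower, against 2.09%. The share of higher genes was therefore below the background in both measures.

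The subunits differed in their middle values. The sum over large subunit genes was 5283 TPM for SC against 5131 for AS (ratio 0.971), and that over small subunit genes 2376 against 2675 TPM (1.13). Scaled coverage gave ratios of 0.959 and 1.13. The median log2 ratio was 0.00 for the 47 large subunit genes and 0.29 for the 29 small subunit genes, or 0.07 and 0.26 by coverage. Past 2-fold were 2 large subunit genes (4.26%), MRPL30 and MRPL42, and 6 small subunit genes (20.7%), against 16.5% of all measured genes. These 6 small subunit genes were MRPS30, MRPS31, MRPS23, MRPS35, MRPS18C and MRPS10. The split is by symbol: the MRPS30 protein sits in the large subunit, and the 29 also include MRPS18A and MRPS36, whose places differ from their symbols as given below. By coverage 3 large and 4 small subunit genes were past 2-fold, against a background of 20.2%. By TPM the small subunit median thus lay at the middle of the transcriptome, and the large subunit median 0.28 below it. By coverage both lay below the median of all measured genes, which was 0.34. The constant added was 1 for TPM but 0.1 for unscaled coverage, so coverage ratios of genes at low level are shrunk less. MRPL50, at 1.63 and 3.36 in both TPM and scaled coverage, had log2 ratios of 0.73 and 1.02. The counts and medians of the 2 measures therefore differ in part by this constant. Transcripts of the large subunit were also richer in G and C, with a median GC content of 52.1% against 47.3%. The part of base composition in the difference between subunits was not tested, but the values relative to genes of like GC content are given further below.

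**Figure D1:**
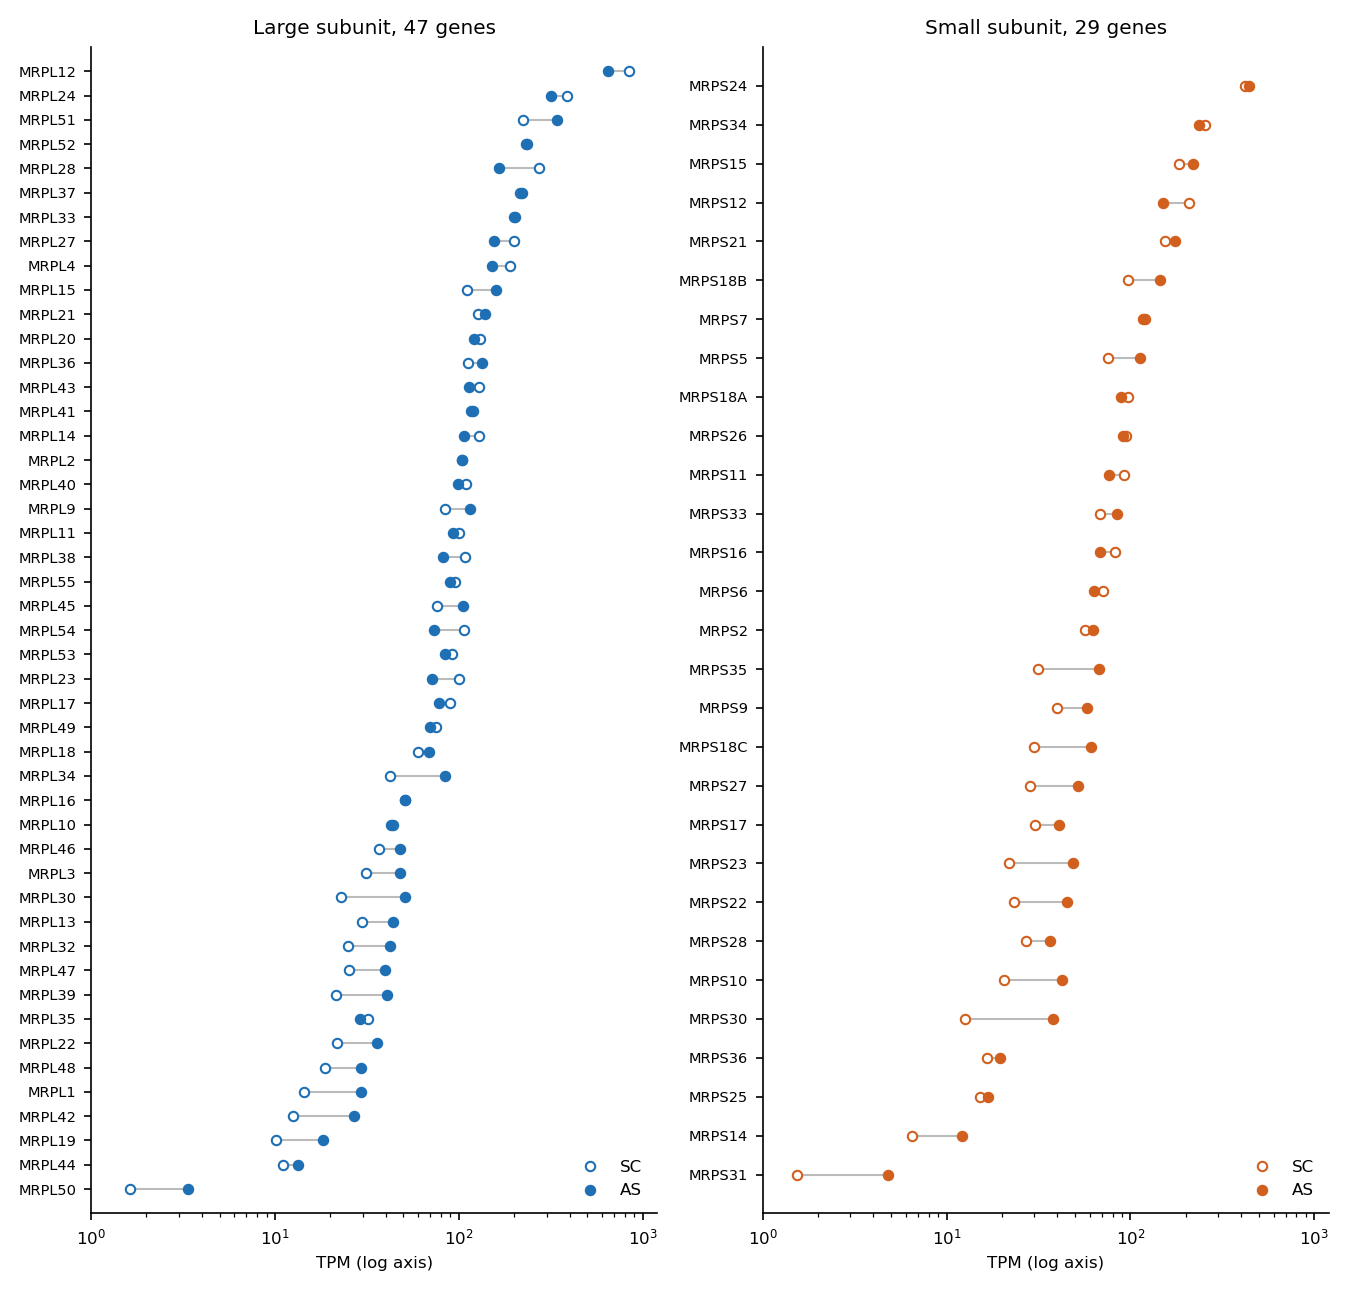
TPM of each gene on a log axis, with SC as open and AS as filled points joined by a line, in order of mean level; the large subunit is on the left and the small subunit on the right. The 8 genes at least 2-fold higher in AS all lie in the lower part of the panels, under 70 TPM, and none of the 25 genes with a mean of 104 TPM or more is past 2-fold.

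Levels ranged widely within a particle in which most proteins are present in a single copy. In the large subunit MRPL12, the stalk protein that recruits translation factors and is present in several copies per ribosome, was highest in both libraries, at 846 TPM in SC against 647 in AS (chromosome 17, 79670387 to 79674556, plus strand, GRCh37). MRPL24, at the exit tunnel, followed at 386 and 317 TPM, MRPL51 at 224 and 340 TPM, MRPL52 at 236 and 233 TPM, and MRPL28 at 272 and 166 TPM. In the small subunit the highest were MRPS24, the counterpart of bacterial S3 at the messenger RNA entry (418 and 442 TPM), MRPS34 (255 and 236 TPM), MRPS15 (183 and 220 TPM), MRPS12, a protein of the decoding centre (208 and 151 TPM), and MRPS21 (153 and 175 TPM). The reads of MRPL12 and MRPS24 may be split: SLC25A10 overlaps MRPL12 on its strand at 710 and 496 TPM, and the read-through gene URGCP-MRPS24 overlaps MRPS24 at 352 and 373 TPM. With 1 library a group, the order among neighbours has no error to set against it.

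Several of the genes of lowest level were among those with the larger ratios. In the large subunit MRPL50 was at 1.63 and 3.36 TPM, MRPL44, which has an RNase III fold, at 11.02 and 13.3 TPM, MRPL19 at 10.1 and 18.3 TPM, MRPL42 at the level given above and MRPL1, at the site where spent transfer RNA leaves, at 14.4 and 29.4 TPM. In the small subunit MRPS31 was at 1.54 and 4.80 TPM, MRPS14 at 6.45 and 12.1 TPM, MRPS25 at 15.2 and 16.7 TPM, MRPS36 at 16.6 and 19.5 TPM and MRPS30 at 12.6 and 37.8 TPM. Among the 26 genes of lowest mean level (2.49 to 42.5 TPM) the median log2 ratio was 0.74 and 6 were past 2-fold. Among the 25 highest (104 TPM and above) it was -0.04 and none was. Of all measured genes 16.5% were at least 2-fold higher. Spearman's rho of mean level with log2 ratio was -0.61 across the 76 genes and -0.33 across 10631 measured coding genes. The SD of log2(TPM + 1) over the 76 genes was 1.59 in SC and 1.28 in AS, and over 10631 measured coding genes 2.31 and 2.07. The order of the genes was close to the same in both libraries, with a Spearman's rho of 0.96 across the 76 genes. The 26 lowest genes had a median GC content of 42.3% and the 25 highest 55.4%, so level and GC content go together and were not separated.

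The gene with the largest log2 ratio of TPM + 1 was MRPS30 (ENSG00000112996, chromosome 5, 44809027 to 44820530, plus strand, GRCh37), at 12.6 TPM in SC against 37.8 in AS, 3.00-fold. Its log2 ratio was 1.51 by TPM and 1.47 by coverage. It was 1.54 in the assembled locus, a locus built from the reads without the annotation's names. The rank holds on that scale only: without the pseudocount the TPM of MRPS31 differed 3.12-fold, and MRPL1 was higher by coverage (1.66) and in the assembled locus (1.90). Despite its symbol, the MRPS30 protein sits in the large subunit in structures of the human ribosome. Relative to coding genes of like GC content its log2 ratio was 0.86. MRPS23 (21.9 and 48.8 TPM, log2 ratio 1.12), MRPS35 (31.4 and 67.8 TPM, 1.09) and MRPS10, a bacterial-type protein of the small subunit's head (20.6 and 42.3 TPM, 1.01), were also past 2-fold in TPM, coverage and assembled locus. These were the 4 members that passed in all 3 measures, which share the same reads and are not independent.

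The other genes past 2-fold in TPM did not pass in every measure. MRPS31 (ENSG00000102738, chromosome 13, 41303432 to 41345309, minus strand) had a log2 ratio of 1.19 by TPM from a low level, but 0.47 by coverage and 0.28 for the assembled locus. MRPL30 is listed as 2 overlapping rows, with 10.4 and 12.4 TPM in SC against 22.4 and 28.9 TPM in AS. Their sum had a log2 ratio of 1.13 by TPM, 1.14 by coverage and 0.83 for the assembled locus. MRPS18C passed in TPM (30.0 and 61.3 TPM, 1.01), with 0.88 in coverage and 0.85 in the assembled locus. MRPL42 had 0.92 in coverage and 1.03 in the assembled locus.

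Just under the threshold were MRPL1 (log2 ratio 0.98 in TPM, 1.66 in coverage), MRPL34 (42.2 and 84.4 TPM, 0.98; 0.25 in coverage), MRPS22 (23.4 and 45.5 TPM, 0.93; 0.87) and MRPL39 (21.5 and 40.9 TPM, 0.90; 0.93). MRPL1, MRPL34 and MRPS31 were the 3 genes whose TPM and coverage ratios differed by 0.5 or more, and none differed by 1 or more. Over all 76 genes the median difference between the measures was 0.03, and 73 had the same sign in both. Such closeness is in part built in, because the measures share reads. Next in the small subunit were MRPS27, a pentatricopeptide repeat protein (28.4 and 51.9 TPM, 0.85), and MRPS14 (0.81).

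**Figure D2:**
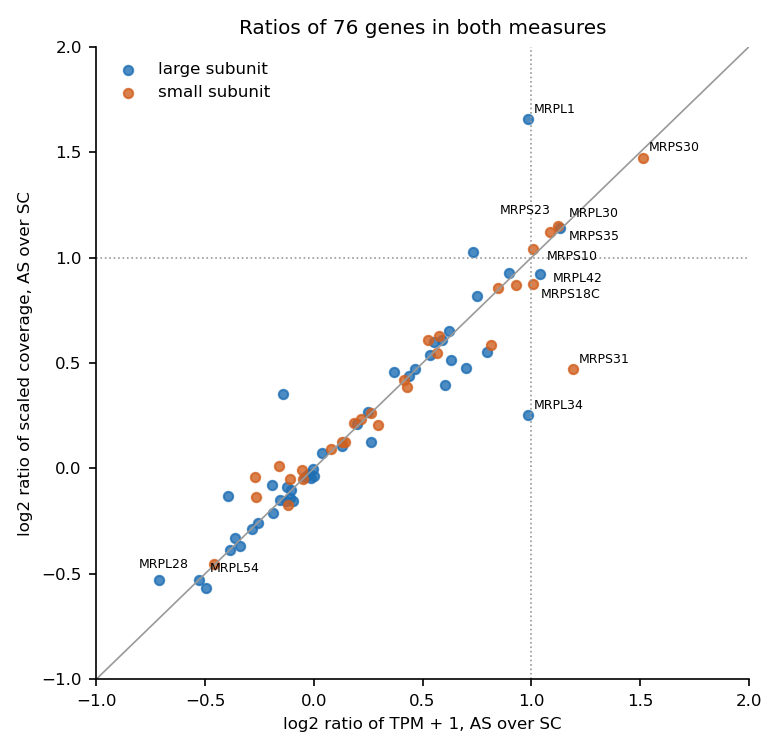
Log2 ratio of each of the 76 genes by TPM on the x axis and by scaled coverage on the y axis, AS over SC; the diagonal marks equal ratios and dotted lines a ratio of 1. Most genes lie on the diagonal, with MRPL1 above it and MRPS31 and MRPL34 below it.

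At the other end, MRPL28, a bacterial-type protein of the large subunit (ENSG00000086504, chromosome 16, 417384 to 420527, minus strand, GRCh37), had the smallest log2 ratio of TPM + 1, at 272 TPM in SC against 166 in AS (log2 ratio -0.71; -0.53 in coverage). MRPL54 followed at 106 and 73.3 TPM (-0.53), MRPL23, at the exit tunnel, at 101 and 71.2 TPM (-0.49), MRPL38 at 108 and 81.9 TPM (-0.39), MRPL12 (-0.39) and MRPL27, beside the peptidyl transferase centre, at 199 and 155 TPM (-0.36). In the small subunit the smallest ratios were those of MRPS12 (-0.46), MRPS16 (82.2 and 68.0 TPM, -0.27), MRPS11 (91.7 and 76.2 TPM, -0.26), MRPS6 (70.9 and 63.5 TPM, -0.16), MRPS18A (-0.12) and MRPS34 (-0.11). By coverage MRPL23 (-0.57) and MRPL54 (-0.53) lay at or below MRPL28. None reached 2-fold in TPM or coverage. MRPS16 was at -0.04 and MRPS6 at 0.01 in coverage, so their lower TPM was not borne out there.

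The remaining members lay between these ends. In the large subunit MRPL15 (110 and 160 TPM, log2 ratio 0.53), MRPL3, which reaches toward the peptidyl transferase centre (31.4 and 47.7 TPM, 0.59), MRPL13 (29.8 and 44.1 TPM, 0.55) and MRPL9 (84.4 and 114 TPM, 0.44) were higher in AS. MRPL2 (104 in both), MRPL16 (51.2 in both), MRPL37 (216 and 222 TPM, 0.04) and MRPL41 (120 and 116 TPM, -0.04) differed by under 0.1 on the log2 scale. MRPL4 (191 and 151 TPM, -0.34), MRPL14 (128 and 107 TPM, -0.26), MRPL43 (129 and 113 TPM, -0.19), MRPL53 (91.9 and 84.1 TPM, -0.13), MRPL20 (131 and 120 TPM, -0.12) and MRPL49 (75.3 and 70.1 TPM, -0.10) were lower. In the small subunit MRPS5 (75.5 and 113 TPM, 0.58), MRPS9 (39.8 and 57.7 TPM, 0.53), MRPS28 (26.9 and 36.5 TPM, 0.43), MRPS17 (30.4 and 40.9 TPM, 0.42) and MRPS2 (56.4 and 62.3 TPM, 0.14) were higher, and MRPS7, a protein of the head, was at 121 and 116 TPM (-0.05).

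By evolutionary origin, the medians lay close together in the large subunit, and further apart in the small subunit by TPM and coverage but not in the assembled loci. The 30 bacterial-type large subunit proteins had a median log2 ratio of 0.00, with 1 past 2-fold, and the 17 found only in mitochondria one of 0.04, with 1 past 2-fold. The 16 bacterial-type small subunit proteins had a median of 0.22, with 2 past 2-fold, and the 10 specific to mitochondria 0.71, with 3 past 2-fold, against 0.28 and 16.5% for all measured genes. By coverage these small subunit medians were 0.24 and 0.51, against 0.34 for all measured genes. In the assembled loci they were 0.26 and 0.30, against 0.26, and the difference between the 2 groups was not tested. MRPS30, MRPS18A and MRPS36 were in none of these groups, and MRPS18B was counted among the 10 although it is a paralog of bacterial S18. The 10 genes were MRPS31, MRPS23, MRPS35, MRPS22, MRPS27, MRPS18B, MRPS33, MRPS25, MRPS26 and MRPS34, and their median GC content was 46.9% against 48.9% for the bacterial-type genes. The last 2, MRPS26 (94.2 and 91.1 TPM) and MRPS34, were slightly lower in AS and had a GC content above 63%.

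By place in the large subunit, the 3 stalk genes were all slightly lower in AS. MRPL12 is given above, MRPL11, at the base of the stalk, was at 100 and 93.0 TPM (-0.11), and MRPL10, which anchors MRPL12, at 43.6 and 42.9 TPM (-0.03). The central protuberance genes had a median of 0.05. They ran from MRPL38 over MRPL40 (110 and 98.4 TPM, -0.16), MRPL55 (95.8 and 89.5 TPM, -0.10), MRPL18 (60.3 and 69.2 TPM, 0.20) and MRPL46 (37.0 and 48.0 TPM, 0.37) to MRPL48 (18.7 and 29.6 TPM, 0.63). The exit tunnel genes split in the middle. MRPL23, MRPL24 and MRPL17 (89.4 and 78.3 TPM, -0.19) were lower in AS, and MRPL45, which holds the ribosome to the inner membrane (75.7 and 105 TPM, 0.46), MRPL47 (25.4 and 39.6 TPM, 0.62) and MRPL22 (21.6 and 35.8 TPM, 0.70) were higher.

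The MRPS18 genes are paralogs of a single bacterial S18 protein and occupy different places in the ribosome, MRPS18A in the large subunit and the other two in the small. Their ratios ran from MRPS18A, at 97.3 TPM in SC against 89.4 in AS (-0.12), over MRPS18B, at 97.2 and 144 TPM (0.56), to MRPS18C (1.01). The order was the same in coverage, at -0.17, 0.55 and 0.88. Their transcripts had GC contents of 57.3%, 52.7% and 38.0% in that order. MRPS36, now known as a component of the 2-oxoglutarate dehydrogenase complex, had a log2 ratio of 0.22. With MRPS30 and MRPS18A counted in the large subunit and MRPS36 left out, the medians were 0.00 over 49 large and 0.35 over 26 small subunit genes.

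The ratios followed the GC content of the transcripts, as they did across the transcriptome. Spearman's rho of the log2 ratio with GC content, across 74 members, was -0.65 by TPM and -0.70 by coverage, and across 10631 measured coding genes -0.64 and -0.71; all points come from the same 2 libraries. Ranked by GC content, the 25 members of 34.96% to 45.5% had a median log2 ratio of 0.70, with 7 past 2-fold (16.5% of all measured genes were). The next 24 had a median of 0.23, with 1, and the 25 of 53.0% to 71.9% one of -0.12, with 0. The small subunit median was above the large subunit median in each of these groups, at 0.91 against 0.63, 0.34 against 0.10 and -0.08 against -0.16, over 10 and 15, 12 and 12, and 6 and 19 genes. All measured coding genes were then put into 10 groups of equal size by GC content, and the median of its group was subtracted from each member's ratio. Relative to this, 27 of 74 members lay above their group, and the medians were -0.16 for the large subunit and 0.05 for the small.

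By TPM, some members stood well away from coding genes of like GC content. MRPL34 (0.94 above), MRPS30 (0.86), MRPL36 (0.55, with levels of 112 and 134 TPM) and MRPS22 (0.49) lay highest. MRPL27 (-1.13), MRPL35 (-1.04), MRPS16 (-0.92), MRPL33 (-0.78), MRPS11 (-0.71), MRPS36 (-0.67), MRPL17 (-0.63) and MRPS33 (-0.61) lay lowest, each value being the log2 ratio less the median of the GC group. By coverage MRPL34 was at 0.25, against a median of 0.04 in its GC group, and MRPL35 at 0.35 against 0.99, so that both stood closer to their groups than by TPM. These genes were picked by their values and are given as a description. MRPS33 was at 68.4 and 84.0 TPM. MRPL27 and MRPL33 (201 and 200 TPM) have low GC content, 44.2% and 42.1%, and levels of 154.7 TPM or more in both libraries.

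**Figure D3:**
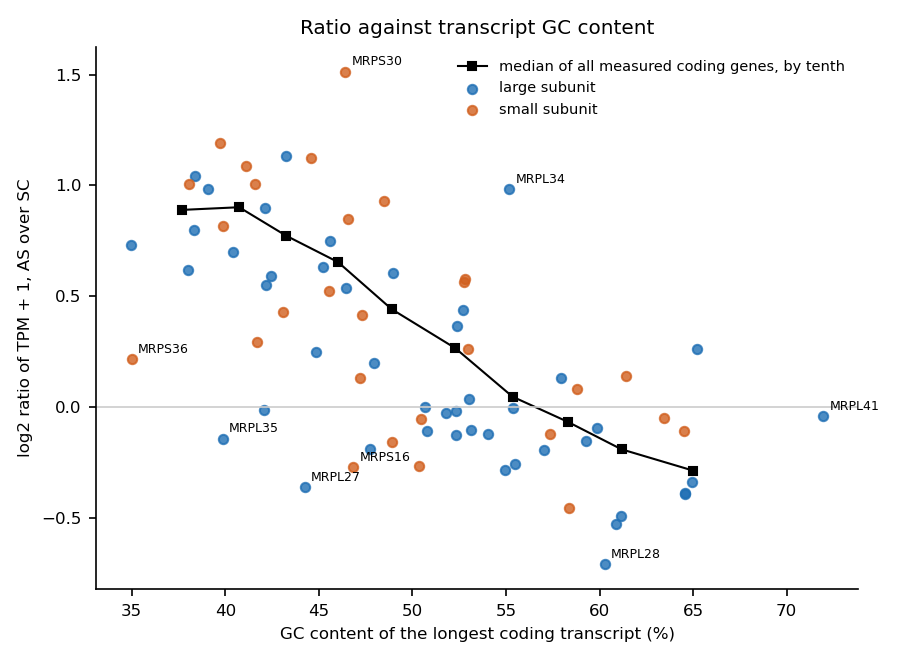
Log2 ratio of TPM + 1 against the GC content of the longest coding transcript for the 74 members with a value, in blue for the large and orange for the small subunit; black squares join the medians of all measured coding genes in 10 groups by GC content. Members follow the line downward, with MRPS30 and MRPL34 above it and MRPL27, MRPL35 and MRPS16 below it.

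Promoters of the members often held letters known from other genes of mitochondria and ribosomes. RefSeq promoters (GRCh38.p14, 250 bases before to 50 after the start) were found for 67 members, and 3 motifs were searched on both strands. The ETS motif CCGGAAG was in 28 of 67 (41.8%), against 10.7% of 27305 promoters of all genes and 20.2% of 8040 promoters of measured coding genes. The YY1 motif AAGATGGCG was in 13 of 67 (19.4%), against 1.85% and 4.35%. The NRF1 motif GCGCATGCG was in 3 (4.48%), against 2.10% and 3.89%. The median log2 ratio of members with and without the motif was -0.02 and 0.26 for ETS, and 0.56 and 0.14 for YY1. The median transcript GC content of members with and without the YY1 motif was 52.3% and 49.6%. A match to these letters is a description and does not show binding.

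The YY1 letters lay after the RefSeq start in most of these genes. They are shown in capitals, with 10 bases to each side, for the 3 highest and the 3 lowest members by log2 ratio of TPM among the 13 that hold them.

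MRPS30: atcgcgggcaAAGATGGCGgcggccaggt

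MRPL42: ggattgaaacAAGATGGCGggttcgtggt

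MRPS10: cgggaccggcAAGATGGCGgcgcggacag

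MRPL52: acgatgacccAAGATGGCGgagccgtgat

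MRPS18A: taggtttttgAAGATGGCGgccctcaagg

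MRPL38: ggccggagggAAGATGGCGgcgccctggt

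The motif is 14 bases from the start in MRPS30 and 7 in MRPL38, counting the start as 1, and these 2 genes have log2 ratios of 1.51 and -0.39. In MRPL52 it lies 98 bases before the start, the place shown, and again 64 bases before the start. The same letters thus occurred in members with ratios on both sides of 0. MRPL17 had the NRF1 letters at 2 places, 81 and 43 bases before the start, the first of them a palindrome that matches on both strands. Its promoter (chr11:6683341-6683590, minus strand) is shown with these in capitals.

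MRPL17: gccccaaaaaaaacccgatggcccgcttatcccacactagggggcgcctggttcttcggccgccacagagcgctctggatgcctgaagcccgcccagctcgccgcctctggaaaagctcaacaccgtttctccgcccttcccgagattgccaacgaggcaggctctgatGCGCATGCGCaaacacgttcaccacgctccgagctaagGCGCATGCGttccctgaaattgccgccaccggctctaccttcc

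Several members face another gene across a shared start region. By the coordinates of the deposited tables, 14 members lay head to head with a measured protein coding gene, with starts within 1000 bases on opposite strands, in 13 pairs. A start is here the outer end of the gene's row. It can differ from the RefSeq start used for the promoters, so some pairs may not share a start region in these cells. In 9 of the 13 the genes of the pair had the same sign, and across the pairs Pearson's r between their log2 ratios was 0.49 and Spearman's rho 0.44. Of 13669 measured genes 9049 had a log2 ratio above 0, so many unrelated genes share a sign as well. Whether the pairs were more alike than unpaired genes was not tested. The 13 partners had a median of 0.28, as had all measured genes, and 1 of them was at least 2-fold higher, against 16.5% of all measured genes.

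In 1 pair both genes belong to the set. MRPL46, of the central protuberance, and MRPS11, of the small subunit, start 34 bases apart in the tables. MRPL46 was at 37.0 TPM in SC against 48.0 in AS, whereas MRPS11 was at 91.7 and 76.2 TPM, so that their differences had opposite signs, by coverage as well (log2 ratios of 0.46 and -0.14). The 250 bases before the RefSeq start of MRPL46 (chr15:88467389-88467638, GRCh38.p14, minus strand) lie between both RefSeq starts and are shown for that reason; none of the 3 motifs is in them, while the YY1 letters lie 9 bases from the start of MRPL46 on its other side, counting the start as 1.

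MRPL46: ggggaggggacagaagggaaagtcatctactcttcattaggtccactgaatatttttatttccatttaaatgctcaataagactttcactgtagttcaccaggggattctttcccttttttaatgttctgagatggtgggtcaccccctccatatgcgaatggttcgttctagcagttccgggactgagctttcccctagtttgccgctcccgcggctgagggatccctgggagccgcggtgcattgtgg

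Other pairs joined the set to further mitochondrial or housekeeping genes. MRPL47 (0.62) faced NDUFB5, a subunit of respiratory complex I, at 19.1 and 32.3 TPM (0.73). MRPL36 (0.26) faced NDUFS6, another complex I subunit, at 349 and 325 TPM (-0.10). MRPL32 (24.8 and 42.5 TPM, 0.75) faced the proteasome subunit PSMA2, at 134 and 210 TPM (0.64), and MRPL18 (0.20) the chaperonin subunit TCP1, at 82.6 and 169 TPM (1.03). MRPS18C faced the helicase HELQ, at 1.51 and 3.00 TPM (0.67), and MRPL54 faced APBA3, at 35.6 and 19.6 TPM (-0.83).

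**Figure D4:**
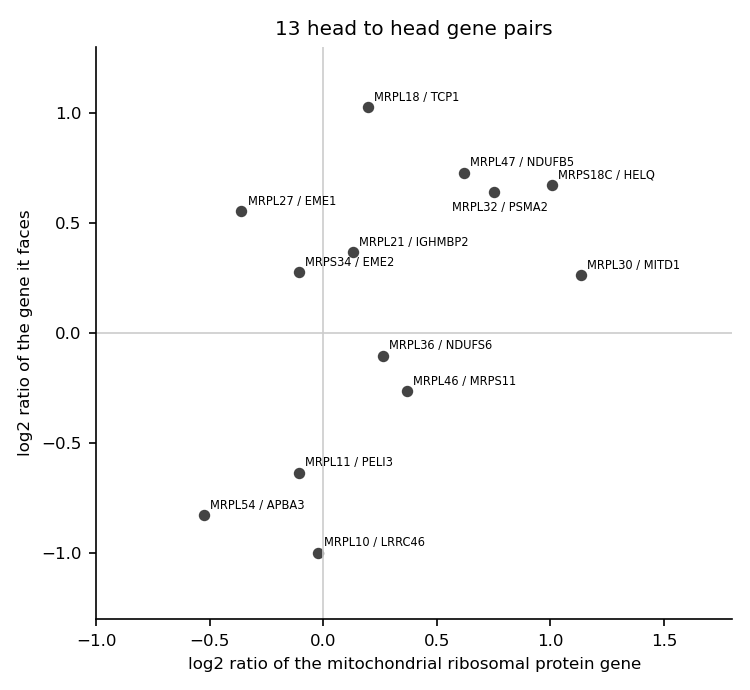
Log2 ratio of TPM + 1 of each of the 13 head to head pairs, with the mitochondrial ribosomal protein gene on the x axis and the gene it faces on the y axis. In 9 pairs the point lies at the upper right or the lower left of the zero lines; the pair of MRPL46 and MRPS11 lies in the lower right.

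The other proteins of the same ribosome, which bear other names, were also near level. Of 7 such genes 1 was at least 2-fold higher (14.3%, against 16.5% of all measured genes) and none 2-fold lower (against 2.17%). The gene past 2-fold was PTCD3, a pentatricopeptide repeat protein of the small subunit (8.86 and 24.6 TPM, log2 ratio 1.38, and 1.01 in coverage). The median of the 7 was -0.03. AURKAIP1 (584 and 515 TPM, -0.18) and GADD45GIP1 (541 and 445 TPM, -0.28) were below MRPL12 and above every other member in both libraries. ICT1, which frees stalled ribosomes, was at 62.7 and 53.1 TPM (-0.24). DAP3, a GTP-binding protein of the small subunit, was at 95.7 and 97.6 TPM (0.03), with 0.62 in coverage. The 12S ribosomal RNA of the small subunit, MT-RNR1, was at 3307 and 3277 TPM (-0.01) and the 16S RNA of the large subunit, MT-RNR2, at 15723 and 19625 TPM (0.32), so that the ribosomal RNAs did not show the order of the protein genes, in which the small subunit median was the higher.

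The genes that build and use the mitochondrial ribosome were measured for comparison. Of 24 genes of its assembly and ribosomal RNA modification, 4 were 2-fold or more higher (16.7%, near the 16.5% of all measured genes) and none was lower by as much, with a median of 0.26. FASTKD2 (2.32 and 12.2 TPM, log2 ratio 1.99), GTPBP10 (0.948 and 5.45 TPM, 1.73), the 16S methyltransferase FTSJ2 (30.5 and 68.2 TPM, 1.13) and MTERFD1 (7.90 and 17.3 TPM, 1.04) were higher, and MPV17L2 had the smallest ratio (35.1 and 21.4 TPM, -0.69). FTSJ2 was at 0.97 in coverage. Of 16 translation factors and partners, 3 were 2-fold higher (18.75%, against 16.5% of all measured genes) and none lower (against 2.17%), with a median of 0.47 in TPM and 0.33 in coverage. These were GUF1, an elongation factor (1.20 and 4.32 TPM, 1.27), LRPPRC, which stabilises mitochondrial messenger RNAs (22.1 and 52.1 TPM, 1.20), and the elongation factor GFM1 (3.63 and 9.23 TPM, 1.14), ahead of GFM2 (0.88), while TUFM was at 437 and 452 TPM (0.05).

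Of 12 genes of mitochondrial transcription and RNA processing, 4 were 2-fold higher (33.3%, against 16.5% of all measured genes) and none lower (against 2.17%), with a median of 0.74. They were MTERF (0.326 and 2.96 TPM, 1.58; 0.88 in coverage), TFB2M, the transcription factor that opens the promoter (1.71 and 6.54 TPM, 1.47), the ribonuclease P subunit TRMT10C (5.37 and 15.4 TPM, 1.36) and TFAM, which packages mitochondrial DNA (3.87 and 11.4 TPM, 1.36), whereas the polymerase POLRMT was at 86.8 and 65.8 TPM (-0.39). The median GC content of this list was 41.3% and that of the translation factors 42.6%, below the 49.6% of the ribosomal proteins. Relative to coding genes of like GC content the medians were -0.03 for transcription, -0.19 for translation factors, 0.07 for assembly and -0.11 for the 76 ribosomal proteins.

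The ribosomal proteins of the cytosol, with a GC content of 49.0%, had a median log2 ratio of -0.02 over 79 measured genes of 81. Among them 1 was at least 2-fold higher (1.27%, against 16.5% of all measured genes) and none 2-fold lower (against 2.17%). Their quartiles were -0.22 and 0.19, and those of the mitochondrial set -0.12 and 0.62. The mitochondrial set was thus the more spread out of the 2, with a wide range in both subunits. The differences between these lists were not tested.

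**Figure D5:**
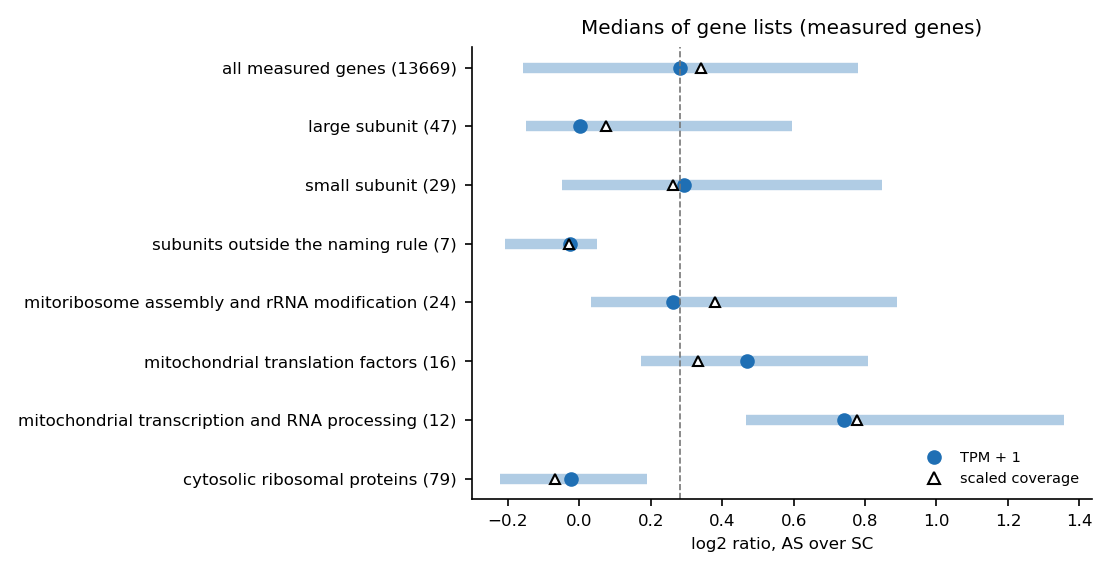
Median log2 ratio of each list by TPM + 1 (points) and by scaled coverage (triangles), with bars from the lower to the upper quartile of the TPM ratios and the number of measured genes in brackets; the dashed line is the median of all measured genes, 0.28. By TPM the large subunit and the cytosolic ribosomal proteins lie left of the line, the small subunit on it, and the transcription list to its right at 0.74.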

How the data were processed

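Per the file headers, the authors deposited for each of the 2 libraries a table with coverage, FPKM and TPM per row. Rows are annotated genes and loci assembled from the reads, so the deposited TPM column is a signal over 2 overlapping sets of rows. For the aligner and quantifier, no name is given in the sources used here. The submitters' processing notes name GRCh38 and hg38, but none of the 74 members found in GENCODE release 29 (GRCh38) starts at the tables' position. The tables list genes beyond the end of chromosome 1 in GRCh38, and their positions are taken as GRCh37. The kit was directional per the labels' protocols.

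Rows of 1 symbol were summed (MRPL30 and MRPS17 have 2 rows each). The ratio was log2((AS + 1)/(SC + 1)) of TPM, for genes whose mean reached 1 TPM; for coverage 0.1 was added. Coverage was divided by coverage per FPKM and multiplied by TPM per FPKM (1.98 in SC, 2.13 in AS). The deposited FPKM was used for these constants only. Transcript GC content and 3' UTRs came from GENCODE by gene identifier (94.9% of measured genes). Assembled loci were matched by the best overlap on the same strand. Read counts are not in the tables used, so depth in reads and counting intervals are unknown. Calculations used Python 3.11.15 and pandas 2.3.3 and were tested on simulated data.

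Members and lists were chosen with earlier results of these data known. Named were, in each subunit, the 5 highest and 5 lowest by level, the 6 largest and 6 smallest ratios, genes past 2-fold, paralogs and structural groups, and in other lists the 4 with the largest absolute ratio; further names were chosen after their values were seen.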

Additional observations from a re-analysis of the deposited data

How the results depend on the processing

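The count of 8 members at least 2-fold higher was 10 with a pseudocount of 0.1 TPM, 4 with a pseudocount of 5 TPM, 1 (MRPS30) after centring on the median of all measured genes, 0 relative to genes of like GC content, and 5 over the 54 members whose assembled locus covered at least 0.8 of the joint span in both libraries, an alternative chosen after seeing the data. The count of 0 members at least 2-fold lower became 1 in the assembled loci (MRPS22, whose row spans far more than its best locus, with an overlap of 0.04) and 2 relative to genes of like GC content (MRPL27 and MRPL35). The shares of all measured genes, 16.5% higher and 2.17% lower in the main setting, were not computed for these alternatives. Whether the members moved against the transcriptome in them is therefore unknown. The large subunit median was -0.28 after centring and -0.16 relative to genes of like GC content, and the small subunit median 0.010 and 0.051. The large minus small difference of -0.29 was -0.19 in coverage and -0.17 in the well matched assembled loci. It was below 0 in each of the 11 alternatives run, all of them on the same 2 libraries. Centring and leaving out the filter could not change this difference, because centring moves both medians alike and every member was measured. Medians were held to have moved when they shifted by over 0.1. Leaving out replicates was not possible with 1 library a group, and read depth per gene is unknown.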

Other observations

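Of 66 pseudogene symbols of the mitochondrial ribosomal proteins, 1 was measured, MRPL45P2 (0.970 TPM in SC against 1.26 in AS), and all 66 summed to 1.90 and 5.07 TPM. MRPS31P4 was at 0.0433 and 1.19 TPM and MRPS10P2 was listed at 0 in SC and at 0.917 TPM in AS; their parent genes MRPS31 and MRPS10 are among the members past 2-fold, and reads of near-identical copies may be divided between them. By symbol, a measured gene overlapped 18 members on the same strand and 27 on the opposite strand. For MRPS14 and MRPS35 the gene on the same strand was Y_RNA, at 102 and 128 TPM. That level is summed over all rows with the name, so the level of the local copy is unknown. DNAJC9, which overlaps MRPS16 on its strand, was at 8.35 and 22.7 TPM (log2 ratio 1.34), against -0.27 for MRPS16. Without the 18 members, an alternative chosen after seeing the data, 6 of 58 were past 2-fold, against 16.5% of all measured genes. The subunit medians were then 0.00 and 0.26. MRPL30 and MRPS35 are among the 18 left out, and both are past 2-fold in TPM.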
